A study of Mus musculus with 24 samples.

Results

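The comparison described here set *Tbx1* loss-of-function tissue (*Tbx1 LOF*) against its own controls across all genes of the array. Its members were chosen by their titles, the 4 arrays titled Tbx1_KO and the 4 titled Tbx1_Ctrl, which are 8 of the 24 arrays of the series. All 19938 genes with a probe set of a single gene symbol were tested on these 8 arrays. Genes of the sarcomere are given briefly, and the account turns to genes with lower values, to signalling pathways, to regional genes of the heart fields and to markers of cells other than heart.

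*Tbx1* encodes a T-box transcription factor of the pharyngeal mesoderm, endoderm and ectoderm, and it lies in the region that is deleted in 22q11.2 deletion syndrome. In the mesoderm it is active in the anterior heart field (AHF), the progenitors that add outflow tract and right ventricle to the heart tube and that also give rise to muscles of the head. Progenitors there are held in a dividing, undifferentiated state by signals such as FGFs, and they switch on sarcomere genes when they join the heart tube, while the posterior heart field supplies the inflow.

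The tissue was AHF of mouse embryos at E9.5 with 19 to 21 somite pairs, dissected as pharyngeal arches 2 to 6 without the heart tube, and the RNA of pooled embryos was hybridized to Affymetrix mouse Gene ST arrays. *Tbx1 LOF* embryos were Mef2c-AHF-Cre/+;Tbx1 f/- or Mef2c-AHF-Cre/+;Tbx1 f/f, which the study combined, so an array may hold embryos with a constitutive null allele, embryos with none, or both. Cre is driven by an enhancer of *Mef2c* that is active in the AHF and its descendants, so it does not delete *Tbx1* in endoderm and ectoderm, where a null allele is still present in f/- embryos. Controls were Tbx1 f/+ without Cre according to the methods, whereas the labels name wild type and Mef2c-AHF-Cre/+;Tbx1 f/+ littermates. Which of these genotypes the control arrays hold could not be decided. The *Tbx1* lines were congenic in Swiss Webster. Each group had 4 arrays, and since embryos were pooled the p-values measure the spread between arrays of pooled embryos. In the fit without a block, that spread includes differences between sets of arrays.

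*Tbx1* itself read 10.98, 11.28, 11.43 and 11.40 in the *Tbx1 LOF* arrays and 11.91, 11.77, 11.98 and 11.99 in the controls (log2 intensity, arrays 1 to 4). All 4 *Tbx1 LOF* arrays lay below all controls. They differed by −0.64 in log2 fold change (SE 0.10, 4 arrays in each group), a level 0.64 times that of controls with a 95% interval of 0.548 to 0.749 (limma, adjusted p = 0.185 over all genes). It is not known how much of the probe set lies in the floxed exons, so the value is a partial check of the labels. The dissected tissue carried the transcripts that define it. *Isl1*, a LIM factor of heart progenitors, read between 10.50 and 10.84 over the 8 arrays, *Fgf8* between 9.41 and 10.09, *Mef2c* between 10.63 and 10.84 and *Tcf21*, a factor of head muscle progenitors, between 9.66 and 10.33. None of these 4 genes reached an unadjusted p under 0.05.

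The 8 arrays differed in ways that genotype did not account for. Arrays numbered 3 and 4 set against 1 and 2, with genotype in the model, gave 3656 genes (18.3%) at an adjusted p under 0.05. *Tbx1 LOF* array 2 stood apart from the other mutants in neural genes and from all arrays in *Xist*. Its mean over 26 neural tube genes lay 0.23 above the mean of the 8 arrays, where the other 3 *Tbx1 LOF* arrays lay at −0.38, −0.09 and −0.19 and the controls at 0.24, 0.11, 0.08 and 0.00. It thus lay above the other mutants and close to control array 1. Its *Xist*, the transcript of the inactive X chromosome, read 6.52 against 9.98 to 12.43 in the other arrays. Over all genes it was *Tbx1 LOF* array 3 that had the lowest correlations with other arrays. They were 0.9881 with *Tbx1 LOF* array 2 and 0.9908 with control array 1 (Pearson r). Results that rest on *Tbx1 LOF* array 2 are given with and without it.

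No gene passed an adjusted p of 0.05 in limma over all genes, and the smallest adjusted p was 0.185. At an unadjusted p under 0.05 there were 614 genes (3.08%, where chance gives 996.9 genes), of which 386 were higher (1.94%) and 228 lower (1.14%) in *Tbx1 LOF*. With a fold change over 1.5 in addition, 59 genes were higher (0.296%) and 7 lower (0.0351%). The arrays of both groups did not overlap for 264 higher genes (1.32%) and 194 lower genes (0.973%). Across all genes the median log2 fold change was −0.01, and the fold change was positive for 41.3% and negative for 58.7%. Without *Tbx1 LOF* array 2, 51.9% were negative, 2.25% were lower and 2.5% higher at an unadjusted p under 0.05. Arrays of both groups carry the numbers 1 to 4, and with the number as a block 11 genes passed an adjusted p of 0.05, all of them higher (0.0552%): *Actn2*, *Casq1*, *Csrp3*, *Mybpc3*, *Myl3*, *Myom1*, *Nppa*, *Slc8a1*, *Smpx*, *Tnnc1* and *Tnni3*. Of these, 8 are on a list of cardiac sarcomere genes. No lower gene passed with the block. At an unadjusted p under 0.05 the block gave 2.92% higher and 1.74% lower genes, and a block for arrays 1 and 2 against 3 and 4 gave 3.16% and 2.22%. With this other block no gene passed an adjusted p of 0.05, so the 11 genes depend on the choice of block. Of the 145 distinct list genes at an unadjusted p under 0.05, 140 kept it with the array number as a block.

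The lower genes were smaller in their differences than the higher ones. At an unadjusted p under 0.05 and without overlap between the groups there were 113 lower genes (0.567%) and 201 higher genes (1.01%). Of the 113, 0 were on the sarcomere list. That list holds 38 of the 19938 genes, so a count of 0 is near its share and describes no trait of the lower genes. After *Tbx1*, the lower genes with the largest fold changes encode a junction protein, metabolic enzymes, receptors of secreted ligands and a few transcription factors.

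*Cldn1*, a claudin of epithelial tight junctions, read 7.68, 8.25, 7.82 and 7.89 in *Tbx1 LOF* and 8.69, 8.58, 8.35 and 8.53 in controls. Array 2 was the highest of the *Tbx1 LOF* arrays and still lay below every control. The difference was −0.62 on the log2 scale (SE 0.12, limma adjusted p = 0.191). *Adh1*, an alcohol dehydrogenase that can oxidize retinol, read 8.43, 8.63, 8.97 and 8.99 against 9.53, 9.28, 9.39 and 9.28. Its log2 fold change was −0.62 (SE 0.13), at −0.88 within arrays 1 and 2 and −0.35 within arrays 3 and 4, so its size varied between these arrays more than that of *Cldn1* (−0.67 and −0.58).

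*Gfra1*, the GDNF-binding co-receptor of the RET tyrosine kinase, read 9.51, 9.78, 9.87 and 9.82 in *Tbx1 LOF* and 10.32, 10.25, 10.31 and 10.40 in controls. The controls spanned a narrow range, and the nearest *Tbx1 LOF* array lay well below it. It had a log2 fold change of −0.58 (SE 0.08, adjusted p = 0.185). *Ret* itself read 9.67, 9.40, 9.52 and 9.68 against 9.86, 9.74, 9.98 and 9.90, a log2 fold change of −0.30 (SE 0.08), and its groups did not overlap either. *Gdnf*, the ligand, had a log2 fold change of 0.04.

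*Rxfp2*, a receptor of the relaxin family, read between 7.12 and 7.25 in *Tbx1 LOF* and between 7.50 and 7.89 in controls (log2 fold change −0.52, SE 0.08). *Prkcb*, a protein kinase C isoform, read 8.95, 9.08, 8.78 and 9.10 against 9.51, 9.29, 9.61 and 9.56 (−0.52, SE 0.09). The 4 arrays of each gene's *Tbx1 LOF* group lay below all controls. Among 17 measured genes of protein kinase C and calcium second messengers, *Prkcb* was the one without overlap, and *Plcg2*, a phospholipase C, also had a p under 0.05 (−0.24). Over all genes, 1.14% were lower at p under 0.05 and 0.973% were lower without overlap. The other protein kinase C genes on the list, *Prkca*, *Prkcd*, *Prkce*, *Prkch*, *Prkci*, *Prkcq* and *Prkcz*, had log2 fold changes between 0.03 and 0.23.

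*Etv2*, an ETS factor required to form endothelial and blood progenitors, read 8.72, 8.64, 8.86 and 8.78 in *Tbx1 LOF* and 9.08, 9.08, 9.38 and 9.27 in controls (−0.45, SE 0.09). *Aplnr*, the apelin receptor, read between 10.85 and 11.01 against 11.20 and 11.39 (−0.32, SE 0.07), and *Fli1*, another ETS factor of endothelium, had a log2 fold change of −0.23 (SE 0.08). These 3 genes did not overlap between groups. They did not stand for endothelium at large: of 28 measured endothelial and endocardial genes, 2 were lower and 0 higher at p under 0.05, 2 were higher with the array number as a block, the median was 0.00, and *Cdh5* and *Pecam1*, junction molecules of endothelial cells, had log2 fold changes of 0.03 and 0.06. Over all genes, 1.14% were lower and 1.94% higher, and 2.92% were higher with that block.

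The remaining lower genes with large fold changes were *Dapl1* (−0.48), *Pla2g7*, a secreted phospholipase that degrades platelet-activating factor (−0.46), *Aldh1a7* (−0.46), the retinoid X receptor *Rxrg* (−0.45), the BMP antagonist *Chrdl1* (−0.40), the ErbB ligand *Nrg1* (−0.40), *Ripply3*, a corepressor of T-box factors in pharyngeal endoderm and ectoderm (−0.39), and *Fgf10* (−0.39). *Aldh1a7* is nearly identical to *Aldh1a1*, so signal of the pair may be shared. Their adjusted p-values lay between 0.185 and 0.773. Among lower genes chosen after their values were seen were *Atp2a3*, a calcium pump (−0.38), the proprotein convertase *Pcsk6* (−0.37), the matrix protease *Mmp9* (−0.37), *Emx2*, a homeobox factor (−0.37), and *Hgf*, hepatocyte growth factor (−0.35). In the plot of lower genes by array, control arrays of each gene form the upper group because the genes were picked for not overlapping.

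**Figure D1:**
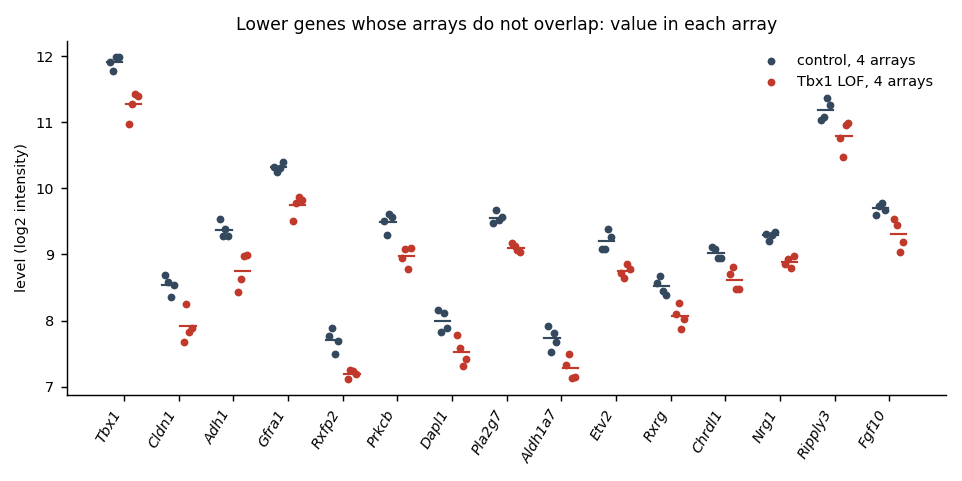
Level (log2 intensity) of the 15 lower genes with the largest fold change among those at an unadjusted p under 0.05 without overlap, in each control array (dark) and each *Tbx1 LOF* array (red), in the order of array numbers from left to right, with lines at the group means. For *Tbx1* the 4 *Tbx1 LOF* arrays lie between 10.98 and 11.43 and the controls between 11.77 and 11.99. The genes were picked for not overlapping, so the gap is a description.

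Genes of AHF progenitors were split in direction. Of 21 measured genes on this list, 9 were lower, 4 higher and 8 neither at p under 0.05, against 1.14% lower and 1.94% higher over all genes. The lower ones were regulators and ligands of the pharyngeal progenitor state: *Tbx1*, *Fgf10*, *Tlx1*, *Six2*, *Foxc1*, *Sema3c*, *Eya1*, *Gbx2* and *Prdm1*. *Tbx1* is the targeted gene, so its place in this count was set by the design. *Foxc1* had a p of 0.0644 in limma with the array number as a block. *Gbx2* and *Prdm1* had p-values of 0.0541 and 0.0806 in limma without *Tbx1 LOF* array 2. The higher ones were *Smyd1*, a methyltransferase needed to build sarcomeres (0.49), *Mab21l2* (0.39), *Hand2*, a bHLH factor of right ventricle and arches (0.25), and *Dlk1* (0.24). The list median was −0.12 with all arrays. It was −0.02 without *Tbx1 LOF* array 2, −0.05 without control array 3, −0.20 without *Tbx1 LOF* array 3 and −0.24 without control array 2.

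*Fgf10*, an FGF ligand of the AHF, read 9.54, 9.45, 9.03 and 9.19 in *Tbx1 LOF* and 9.60, 9.73, 9.78 and 9.67 in controls. The gap to the controls was small in arrays 1 and 2 and wide in arrays 3 and 4, with log2 fold changes of −0.17 and −0.61 within them and −0.39 (SE 0.11) over all. *Tlx1*, a homeobox factor of the arches, read 9.75, 9.53, 9.78 and 9.80 against 10.16, 9.94, 10.27 and 10.04 (−0.39, SE 0.09). *Six2*, a homeobox factor of arch mesenchyme, read 10.24, 10.74, 10.51 and 10.49 against 10.94, 10.85, 10.80 and 10.92 (−0.38, SE 0.10). For both genes the groups were separate. *Eya1*, a cofactor of SIX-family proteins, read 11.27, 11.47, 11.38 and 11.48 against 11.67, 11.51, 11.67 and 11.69 (−0.24, SE 0.07), with control array 2 lying close to the *Tbx1 LOF* arrays. *Isl1* (0.03), *Fgf8* (−0.06) and *Mef2c* (0.10), other defining genes of the field, did not reach p under 0.05.

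Genes of branchiomeric muscle, the head muscle lineage that shares its progenitors with the AHF, had negative fold changes in 15 of 16 measured genes, and 5 were lower and 0 higher at p under 0.05, against 58.7% negative and 1.14% lower over all genes. Without *Tbx1 LOF* array 2, 11 of 16 were negative and 6 were lower, against 51.9% and 2.25% over all genes. The 5 were *Eya4* (−0.36), *Myf5*, a myogenic determination factor (−0.33), *Ebf3* (−0.32), *Eya1* and *Myog*, myogenin (−0.22), whose p was 0.0554 with the array number as a block and 0.098 without *Tbx1 LOF* array 2 (limma). *Myf5* read 7.39, 7.50, 7.48 and 7.30 in *Tbx1 LOF* and 7.89, 7.94, 7.75 and 7.41 in controls, so control array 4 overlapped the mutants. *Tcf21*, *Msc* and *Myod1* had log2 fold changes of −0.07, −0.02 and −0.01. *Myf5* is also on the list of somite and paraxial mesoderm. Of that list, 18 of 19 measured genes were negative, and 14 of 19 without *Tbx1 LOF* array 2 (51.9% of all genes). The mean over that list lay at −0.31, 0.01, 0.01 and −0.17 in *Tbx1 LOF* arrays and at 0.25, 0.31, −0.01 and −0.09 in controls. The part of somite tissue in these values was not tested.

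Genes of the posterior heart field and inflow tract included many with higher values in mutant than in control tissue. Of 21 measured genes, 11 were higher, 1 lower and 9 neither at p under 0.05, against 1.94% higher and 1.14% lower over all genes, and the median was 0.38. The list mean lay at 0.44, 0.02, 0.13 and 0.06 in *Tbx1 LOF* arrays and at −0.12, 0.05, −0.27 and −0.30 in controls, so control array 2 lay above *Tbx1 LOF* array 2 and the groups overlapped. The largest were *Sfrp5*, a secreted Wnt antagonist of the inflow (1.02), *Gata4* (0.85), *Wnt2* (0.77), *Tbx20* (0.71), *Hcn4*, the pacemaker channel (0.70), *Tbx5* (0.58), *Hand1* (0.48), *Shox2*, a factor of the sinus node (0.43), *Gata6* (0.43), *Gata5* (0.42) and *Osr1* (0.38). Of these, *Sfrp5*, *Gata4*, *Wnt2*, *Tbx20*, *Tbx5*, *Hand1* and *Gata6* are genes that the study names for these same arrays. The count of higher genes is therefore not independent evidence of a direction. *Osr1* had a p of 0.0697 with the array number as a block (limma). *Foxf2* was the lower one (−0.27). With that block 2 were lower (1.74% of all genes), and 3 were with the block for arrays 1 and 2 against 3 and 4 (2.22%). Not every gene of this region was higher: *Aldh1a2*, which makes retinoic acid, *Hoxb1* and *Meis1* had log2 fold changes of −0.01, −0.05 and 0.02.

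*Gata4*, a zinc finger activator of cardiac genes, read 11.65, 10.92, 11.12 and 11.06 in *Tbx1 LOF* and 10.22, 10.79, 10.23 and 10.09 in controls. The groups did not overlap, although control array 2 lay near the mutants. It was higher by 0.85 on the log2 scale (SE 0.18, limma adjusted p = 0.247). *Wnt2*, a Wnt ligand of the posterior field, read 11.19, 10.51, 10.60 and 10.45 against 10.12, 10.09, 9.69 and 9.75 (0.77, SE 0.16, adjusted p = 0.26). *Tbx5*, a T-box factor of the inflow and atria, read 11.33, 10.41, 11.14 and 10.78 against 10.27, 10.57, 10.28 and 10.24. *Tbx1 LOF* array 2 thus lay within the controls for *Tbx5* (0.58, SE 0.17). *Sfrp5* read 10.54, 9.97, 9.56 and 9.84 against 8.88, 9.72, 8.79 and 8.43, and overlapped in the same way through control array 2. *Aldh1a2* ranged from 9.99 in control array 4 to 11.64 in control array 2, so the controls alone spread more widely than both groups differed.

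**Figure D2:**
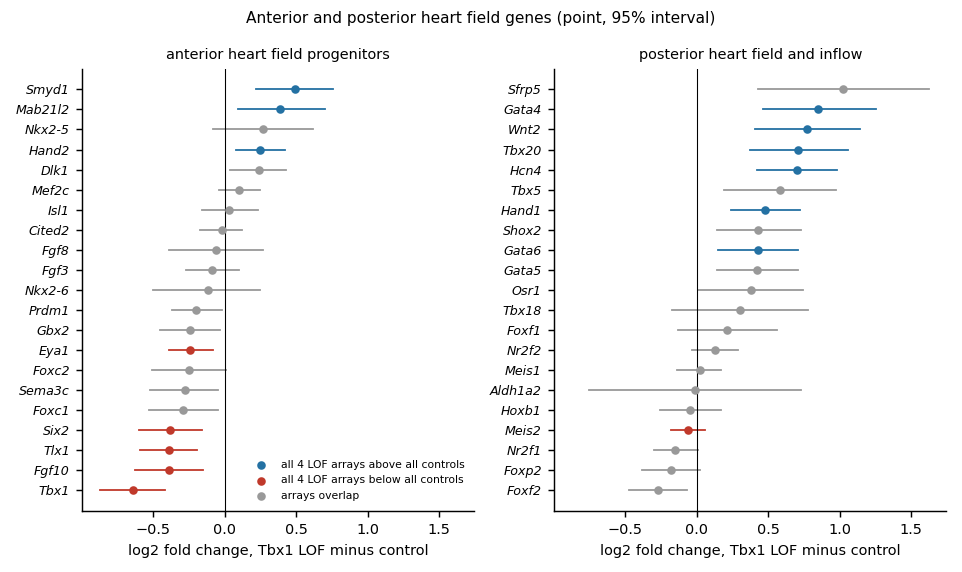
Log2 fold change (*Tbx1 LOF* minus control, 4 arrays each) with its 95% interval for 21 measured genes of AHF progenitors and 21 of the posterior heart field and inflow, coloured by whether all arrays of the groups were separate. AHF genes run from *Tbx1* at −0.64 to *Smyd1* at 0.49, and posterior genes from *Foxf2* at −0.27 to *Sfrp5* at 1.02.

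Markers of heart muscle had higher values as well. All 14 measured genes out of 15 that the study names for these arrays were positive, and 13 had a p under 0.05, with *Srf* the exception (0.01). That list was chosen on these samples and is not independent evidence of its direction. The same holds for its members on the posterior, mesothelium, Wnt, BMP and neuregulin lists. Of 16 heart tube chamber genes, 13 were higher at p under 0.05, and 27 of 38 measured sarcomere genes were, with 0 lower in either list. Among all genes, 1.94% were higher and 1.14% lower. The mean over the chamber genes lay between 0.11 and 0.44 in *Tbx1 LOF* arrays and between −0.51 and −0.12 in controls, relative to the 8 arrays. The dissection left out the heart tube, and more heart tissue in the sample, more cells of a type and more RNA per cell cannot be told apart in pooled tissue. Its part in the higher posterior genes was not tested.

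Among genes that no muscle list holds, the same direction was seen for *Vsnl1*, a calcium sensor of the visinin family (0.90), *Thbs4*, a thrombospondin of the matrix (0.86), *Cacna2d2*, a calcium channel subunit (0.86), *Hspb7*, a small heat shock protein of muscle (0.84), and *Pgam2*, the muscle phosphoglycerate mutase (0.84). *Aqp7*, an aquaglyceroporin that was chosen after its values were seen, read 7.90, 7.65, 7.82 and 7.64 in *Tbx1 LOF* and 7.10, 6.99, 7.16 and 7.28 in controls. Its groups were well apart, with a log2 fold change of 0.62 (SE 0.09). In a fit of all 24 arrays, *Aqp7* was the single higher gene at an adjusted p under 0.05 (0.00502% of genes) and *Tbx1*, *Gfra1*, *Prkcb*, *Nrg1* and *Cldn1* were the 5 lower ones (0.0251%). That fit takes the spread of the genes also from the other experiments. None of the heart genes that passed with the array number as a block passed in it, with *Tnni3* at an adjusted p of 0.801 and *Actn2* at 0.715 (limma). In the other 16 arrays the mean over the chamber genes ran from −0.68 to 1.97 relative to these 8 arrays.

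The sequences upstream of these genes are shown because a T-box factor was removed, and T-box proteins bind the element AGGTGTGA. Promoters from RefSeq (build GRCm38.p6, 250 bases before to 50 after each start) were found for 83 of the 113 lower and 161 of the 201 higher genes. The element, searched on both strands, was in 0 of 83 lower genes and in 3 of 161 higher genes (1.86%), against 399 of 27025 genes with a promoter (1.48%). The 3 are *Aqp7*, *Nppa*, a natriuretic peptide of the chambers, and *Tnni3*, cardiac troponin I. Their promoters follow 5′ to 3′ on the strand of the gene, with the element or its reverse complement in capitals.
Aqp7, chr4:41048087-41048386, minus strand: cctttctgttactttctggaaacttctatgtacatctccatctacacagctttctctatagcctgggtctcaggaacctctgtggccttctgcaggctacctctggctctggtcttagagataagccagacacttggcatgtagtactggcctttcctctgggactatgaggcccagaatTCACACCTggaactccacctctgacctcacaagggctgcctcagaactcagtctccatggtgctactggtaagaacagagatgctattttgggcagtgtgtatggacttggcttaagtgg
Nppa, chr4:148000472-148000771, plus strand: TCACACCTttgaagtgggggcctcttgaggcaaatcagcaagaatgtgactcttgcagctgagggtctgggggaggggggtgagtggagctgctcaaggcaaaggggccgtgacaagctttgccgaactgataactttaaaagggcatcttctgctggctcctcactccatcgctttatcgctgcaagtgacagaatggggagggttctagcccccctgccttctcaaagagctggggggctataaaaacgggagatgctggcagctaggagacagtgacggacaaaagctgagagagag
Tnni3, chr7:4522479-4522778, minus strand: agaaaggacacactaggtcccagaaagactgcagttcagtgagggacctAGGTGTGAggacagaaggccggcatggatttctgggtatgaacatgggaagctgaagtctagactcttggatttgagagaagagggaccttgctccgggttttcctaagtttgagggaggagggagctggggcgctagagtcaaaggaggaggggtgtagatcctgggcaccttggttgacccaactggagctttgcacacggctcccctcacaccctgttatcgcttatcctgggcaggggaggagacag
The GATA site AGATAAG was in 12 of 161 higher genes (7.45%) and 1 of 83 lower genes (1.2%), against 3.5% of all genes with a promoter. The higher genes with it include *Bmp10*, *Slc8a1*, *Popdc2*, *Krt8* and *Aqp7*. The CArG box, the element of serum response factor, was in 8 of 161 higher genes (4.97%) and 2 of 83 lower genes (2.41%), against 1.81%, and its higher genes include *Actc1*, *Acta1*, *Myl3*, *Ldb3* and *Myom1*. These matches are letters in a window, chosen after the values were seen.

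Signalling genes showed few differences as whole lists, and single ligands and receptors carried them. FGF signals keep AHF progenitors dividing. Of 31 measured FGF ligands, receptors and feedback targets, 22 were negative, 3 were lower and 0 higher at p under 0.05, and the median was −0.06. The share of negative genes was 58.7% and of lower genes 1.14% over all genes. The block for arrays 1 and 2 against 3 and 4 gave 6 lower (2.22% of all genes), adding *Spry2*, *Spred1* and *Etv5*. The 3 were the ligands *Fgf10*, *Fgf1* (−0.33) and *Fgf9* (−0.27). *Fgf9* read 7.90, 8.11, 7.93 and 7.89 in *Tbx1 LOF* and 8.36, 8.15, 8.17 and 8.24 in controls, so array 2 came within a small distance of the lowest control. The feedback targets *Spry1*, *Spry2*, *Spry4*, *Dusp6* and *Etv5* had log2 fold changes from −0.18 to −0.07 and did not pass without that block, and *Etv4* had 0.06.

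Neuregulin and GDNF receptors and ligands were the signalling list with most lower genes beyond overlap. Of 21 measured genes, *Gfra1*, *Nrg1*, *Ret* and *Erbb3* were lower and *Erbb4* was higher at p under 0.05, and none of the 5 overlapped between groups. Over all genes, 1.14% were lower and 1.94% higher at p under 0.05. Without overlap, 0.973% of all genes were lower and 1.32% higher. *Nrg1* read 8.86, 8.93, 8.80 and 8.98 in *Tbx1 LOF* and 9.31, 9.20, 9.30 and 9.34 in controls. *Erbb4*, a neuregulin receptor of cardiomyocytes, read 9.45, 9.05, 8.92 and 8.71 against 8.40, 8.48, 8.36 and 8.16. The ligand was thus lower by 0.40 (SE 0.06) and this receptor higher by 0.69 (SE 0.14) on the log2 scale. *Erbb2*, the shared partner of the ErbB receptors, had 0.06, and *Erbb3*, the receptor of neural crest and mesenchyme, had −0.14 (SE 0.06).

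Genes of retinoic acid were negative in 16 of 19 measured cases, and 3 were lower and 1 higher at p under 0.05, against 58.7%, 1.14% and 1.94% over all genes. *Rxrg* read 8.10, 8.27, 7.87 and 8.02 in *Tbx1 LOF* and 8.56, 8.68, 8.44 and 8.38 in controls (−0.45). *Cyp26c1*, which degrades retinoic acid, read 9.03, 9.75, 9.18 and 9.43 against 9.97, 9.73, 9.66 and 10.05 (−0.51), and array 2 overlapped the controls. *Aldh1a1*, a retinaldehyde dehydrogenase, had −0.27. The higher one, *Rbp4*, carries retinol in plasma (0.91), and it is described with the liver genes.

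Canonical Wnt targets were close to 0 as a list, with a median of −0.03 over 23 measured genes. *Fst*, follistatin, was the one gene at p under 0.05 (−0.48), and *Axin2*, *Lef1* and *Ccnd1*, widely used readouts of β-catenin, had log2 fold changes of −0.05 (SE 0.08), −0.07 (SE 0.07) and −0.04. The values of *Ctnnb1*, the gene of β-catenin, were 13.30, 13.33, 13.10 and 13.13 in *Tbx1 LOF* and 13.39, 13.29, 13.16 and 13.16 in controls. The log2 fold change was −0.04 with a 95% interval of −0.21 to 0.14, and its sign turned when single arrays were left out. Among 48 Wnt ligands, receptors and regulators, *Wnt2*, *Sfrp5* and *Wnt2b* (0.33) were higher and *Wnt5a*, a ligand of the non-canonical pathway, was lower at p under 0.05. *Wnt5a* read 10.41, 10.50, 10.61 and 10.60 against 10.83, 10.64, 10.76 and 10.70, a small separation (−0.20, SE 0.07). These were 3 higher and 1 lower of 48, against 1.94% and 1.14% over all genes. There were 5 higher with the array number as a block (2.92% of all genes) and 6 with the block for arrays 1 and 2 against 3 and 4 (3.16%). Without *Tbx1 LOF* array 2 there were 6 higher and 3 lower. Without that array, 3 Wnt targets were lower and 1 higher, where all genes gave 2.25% lower and 2.5% higher.

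BMP ligands, which promote cardiac differentiation, had higher values for some members. *Bmp2* read 9.70, 9.71, 9.27 and 9.17 in *Tbx1 LOF* and 9.00, 9.10, 9.02 and 8.96 in controls (0.44, SE 0.12), with the wider gap in arrays 1 and 2 (0.65) than in 3 and 4 (0.23). *Bmp10*, a ligand of the heart chambers, read 7.93, 7.23, 7.67 and 7.34 against 6.88, 7.14, 7.06 and 6.81 (0.57, SE 0.14). *Bambi*, a pseudoreceptor induced by BMP (0.33), and *Tll1*, a protease that releases BMPs from Chordin (0.34), were also higher. *Grem1*, a secreted BMP antagonist, read 9.37, 9.42, 9.97 and 9.89 against 9.97, 10.07, 10.03 and 10.08. Its difference sat in arrays 1 and 2 (−0.62) more than in 3 and 4 (−0.13), and the groups came within rounding of each other. In all, 4 of 33 measured BMP genes were higher and 1 lower at p under 0.05, against 1.94% and 1.14% over all genes. With the array number as a block 7 were higher (2.92% of all genes), with *Bmp5*, *Bmp7* and *Smad7* added. With the block for arrays 1 and 2 against 3 and 4 there were 8 (3.16%), and without *Tbx1 LOF* array 2 there were 6 (2.5%). *Bmp4* and *Bmp7*, the other ligands of the arches, had log2 fold changes of 0.15 and 0.19, and the targets *Id1*, *Id2* and *Id3* had 0.09, 0.03 and −0.06, without passing in the fit with no block.

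Notch genes were negative in 18 of 21 cases, and 1 was lower at p under 0.05, *Heyl*, a transcriptional repressor induced by Notch (−0.33). Over all genes 58.7% were negative and 1.14% lower. Without *Tbx1 LOF* array 2, 14 of 21 were negative and 5 lower, against 51.9% and 2.25% over all genes. Of 32 semaphorin, slit and netrin genes, *Slit1* (−0.65) and *Sema3c*, a guidance cue for cells of the outflow tract (−0.28), were lower at p under 0.05, and without that array 9 were. With the array number as a block, 3 guidance genes were higher where 0 had been. Of 26 tight junction and adhesion genes, *Cldn1*, *Cldn8* (−0.22) and the desmosomal *Pkp1* (−0.21) were lower, and *Dsp*, desmoplakin (0.45), and *Krt8*, a simple epithelial keratin (0.27), were higher. *Pkp1* had a p-value of 0.0708 in limma with the array number as a block. *Cdh1*, *Epcam* and *Ocln*, general epithelial genes, had log2 fold changes of −0.10, −0.12 and −0.07. Hedgehog genes held 2 lower of 16, *Foxf2* and *Disp1* (−0.13), and 4 with that block. TGF-β genes held 1 lower and 1 higher of 21, ephrin genes 1 higher of 18, and VEGF, PDGF, IGF and chemokine genes 2 lower and 2 higher of 26. Genes of the cardiac jelly and outflow matrix held 3 higher of 31, *Adamts1* (0.22), *Ecm1* (0.27) and *Col1a1* (0.29). For all these lists the shares over all genes were 1.14% lower and 1.94% higher in the fit of all 8 arrays without a block. They were 1.74% lower and 2.92% higher with the array number as a block. Without *Tbx1 LOF* array 2 they were 2.25% lower and 2.5% higher.

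**Figure D3:**
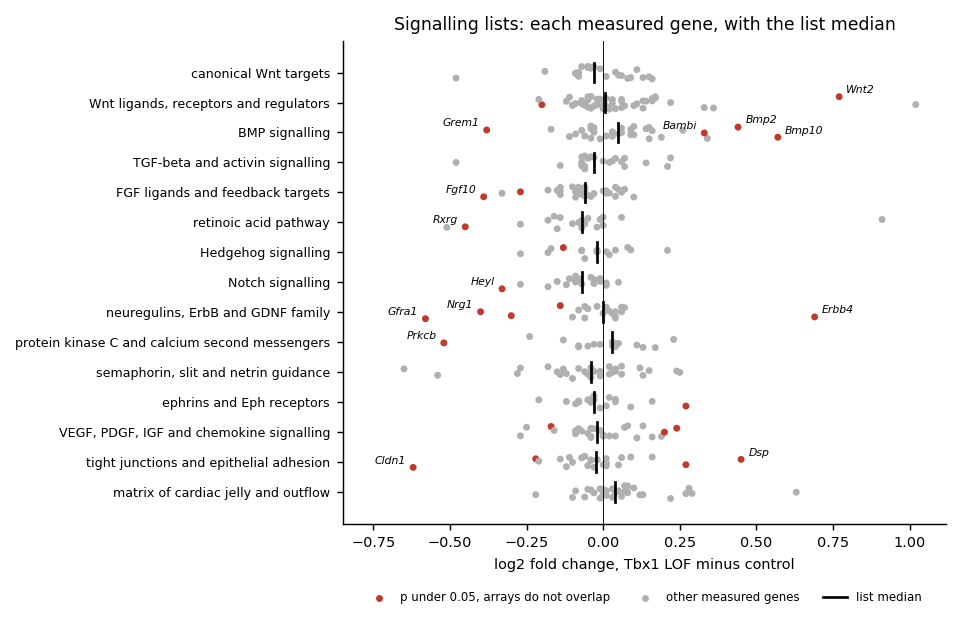
Log2 fold change (*Tbx1 LOF* minus control) of each measured gene on 15 signalling, junction and matrix lists, with the list median as a bar and genes at an unadjusted p under 0.05 without overlap in red. Medians lie near 0, and single genes such as *Gfra1* at −0.58, *Nrg1* at −0.40, *Erbb4* at 0.69 and *Wnt2* at 0.77 stand out from their lists.

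Markers of cells other than heart were examined because the dissected tissue holds endoderm, ectoderm, neural crest, vessels and blood beside mesoderm. Pharyngeal endoderm had a median of −0.04 over 24 measured genes, with 2 lower and 2 higher at p under 0.05 (4 higher with the array number as a block). Over all genes, 1.14% were lower and 1.94% higher, and 2.92% were higher with that block. *Ripply3* read 10.76, 10.47, 10.96 and 10.99 in *Tbx1 LOF* and 11.04, 11.08, 11.37 and 11.26 in controls (−0.39, SE 0.12). *Pax9*, a paired box factor of the pouches, read 9.42, 9.52, 9.78 and 9.70 against 9.97, 9.77, 10.09 and 10.03, and array 3 of the mutants just overlapped control array 2 (−0.36, SE 0.10). *Foxa2*, *Nkx2-1* and *Shh*, other endoderm genes, had log2 fold changes of 0.12, −0.01 and 0.08. Surface ectoderm and placode genes held 3 lower of 23, *Tfap2b* (−0.34), *Foxi3* (−0.32) and *Perp* (−0.19). Neural crest and arch mesenchyme held 2 lower, *Tfap2b* and *Ret*, and 2 higher, *Hand2* and *Alx1* (0.22), of 26. With the block 4 were lower, against 1.74% of all genes. *Sox10*, a factor of migrating crest, had −0.18 and a p of 0.0598, although its arrays did not overlap at the precision of the values.

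Genes of liver and gut plasma proteins were positive in 20 of 20 measured cases with a median of 0.26, and 6 were higher at p under 0.05, but none of the 20 was free of overlap. Over all genes, 41.3% were positive, 1.94% were higher at p under 0.05 and 1.32% were higher without overlap. *Afp*, alpha-fetoprotein, read 9.74, 9.23, 7.64 and 9.33 in *Tbx1 LOF* and 7.41, 8.63, 7.29 and 7.05 in controls. *Ttr*, transthyretin, followed the same arrays, with 10.08, 9.43, 8.51 and 9.99 against 8.30, 8.92, 7.90 and 7.55. *Tbx1 LOF* array 3 was low and control array 2 high for both, with log2 fold changes of 1.39 (SE 0.45) and 1.34 (SE 0.36). *Rbp4* showed that pattern too (0.91). The list mean lay at 0.35, 0.06, −0.08 and 0.40 in *Tbx1 LOF* and at −0.13, 0.03, −0.30 and −0.34 in controls.

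Genes of mesothelium, septum transversum and proepicardium, tissue that lies next to the inflow, were higher for 7 of 22 measured genes and lower for 0 at p under 0.05. The shares over all genes were 1.94% higher and 1.14% lower. *Gata4*, *Hand1*, *Mab21l2*, *Wt1* and *Bnc1* were without overlap, and *Gata4*, *Gata5* and *Hand1* are on the posterior list as well. *Wt1*, a factor of the proepicardium, read 9.44, 9.10, 9.06 and 9.00 in *Tbx1 LOF* and 8.67, 8.98, 8.52 and 8.59 in controls (0.46, SE 0.12). *Bnc1*, a zinc finger factor of mesothelium, read 10.45, 9.98, 9.93 and 10.00 against 9.72, 9.70, 9.61 and 9.59 (0.43, SE 0.11). The list mean was 0.32 in *Tbx1 LOF* array 1 and between −0.05 and 0.04 in the other 3, against −0.21 to 0.08 in controls, so the groups overlapped in the list mean. The parts of liver and of septum tissue in the higher posterior genes were not tested.

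Erythroid genes were positive in 14 of 14 measured cases, with 5 higher at p under 0.05, among them *Gata1*, the master regulator of red cells (0.30), and *Klf1* (0.28), and none was without overlap. Over all genes, 41.3% were positive and 1.94% were higher at p under 0.05. Without *Tbx1 LOF* array 2, 2 of the 14 were higher, against 2.5% of all genes, and *Gata1* and *Klf1* had p-values of 0.0686 and 0.0737 (limma). The list median was 0.37 within arrays 1 and 2 and 0.06 within arrays 3 and 4. The embryonic globins *Hbb-bh1*, *Hbb-y* and *Hba-x* had log2 fold changes of 0.07, 0.05 and 0.08. Macrophage genes had a median of 0.00, with *Spi1* the one of 15 at p under 0.05 (0.16). In 28 endothelial genes the list mean lay between −0.04 and 0.04 in *Tbx1 LOF* and between −0.04 and 0.05 in controls.

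**Figure D4:**
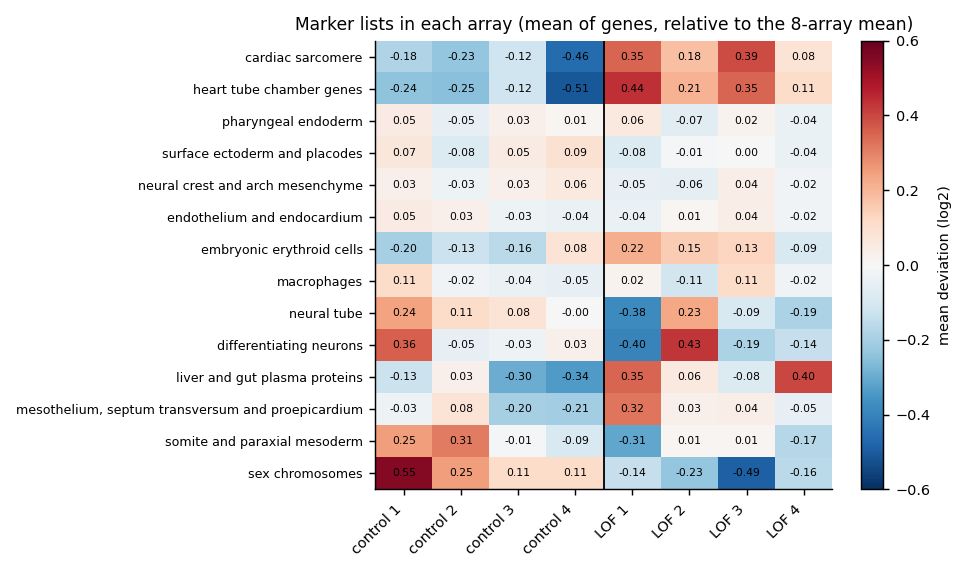
Mean over the genes of each marker list in each array, relative to the mean of the 8 arrays (log2), for 4 control arrays (left of the line) and 4 *Tbx1 LOF* arrays (right). Heart lists are below 0 in every control and above 0 in every *Tbx1 LOF* array, neural lists are high in *Tbx1 LOF* array 2 and control array 1, and liver and gut genes are high in *Tbx1 LOF* arrays 1 and 4.

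In neural genes *Tbx1 LOF* array 2 departed from the other mutants. The mean over neural tube genes lay at −0.38, 0.23, −0.09 and −0.19 in *Tbx1 LOF* and at 0.24, 0.11, 0.08 and 0.00 in controls. Over genes of differentiating neurons it was −0.40, 0.43, −0.19 and −0.14 against 0.36, −0.05, −0.03 and 0.03. In both lists *Tbx1 LOF* arrays 1, 3 and 4 lay below all controls and array 2 did not. Of 26 measured neural tube genes, 25 were negative, but 1 was at p under 0.05, *Zic2*, and none was without overlap. Among all genes, 58.7% were negative and 1.14% lower at p under 0.05. Without *Tbx1 LOF* array 2, 21 of the 26 were negative, against 51.9% of all genes. *Zic2* read 7.60, 9.24, 7.91 and 8.16 in *Tbx1 LOF* and 9.17, 9.18, 9.07 and 8.88 in controls. Its log2 fold change of −0.85 (SE 0.28) was the largest negative one at p under 0.05, yet array 2 lay above all controls. *Lrrn1*, a leucine-rich repeat protein of the neural tube, read 9.29, 10.69, 9.65 and 9.74 against 10.80, 10.68, 10.39 and 10.31 (−0.70), and *Slit1* read 8.63, 10.02, 9.16 and 9.37 against 10.13, 9.67, 9.97 and 10.00. *Meox2*, a somite factor, read 7.81, 9.23, 8.36 and 8.46 against 9.72, 10.03, 9.02 and 8.38, and *Foxd1* had −0.54 with the same array highest among the mutants and a p of 0.0548 with the array number as a block (limma). These 5 genes overlapped between the groups and were chosen here after their values were seen.

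Of the 7 lower genes past a fold change of 1.5, 4 were of this kind (*Zic2*, *Meox2*, *Lrrn1* and *Slit1*) and 3 were not (*Tbx1*, *Cldn1* and *Adh1*). Without *Tbx1 LOF* array 2 there were 38 such lower genes (0.191%), which included 6 of the 7. There was 1 without *Tbx1 LOF* array 1, and there were 2 without control array 1 and 15 without control array 4. Neural tube genes lower at p under 0.05 went from 1 to 11 of 26 without *Tbx1 LOF* array 2 (and to 5 with the array number as a block), those of differentiating neurons from 0 to 11 of 23, and those of somites from 3 to 7 of 19 (and to 5 with the block). The share of lower genes over all genes went from 1.14% to 1.74% with the block and to 2.25% without *Tbx1 LOF* array 2. Over all lists, 45 distinct genes were lower with every array and 89 without that one, and 31 to 54 when each of the other 7 arrays was left out. In contrast, 100 list genes were higher, and 77 to 107 when each of the 8 arrays was left out.

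The sex of the pooled embryos also differed between arrays. *Eif2s3y*, a gene of the Y chromosome, read 8.44, 10.16, 7.76 and 8.34 in *Tbx1 LOF* and 9.70, 9.46, 9.84 and 9.07 in controls. Array 2 of the mutants was the highest in this gene and the lowest in *Xist*. All 6 measured genes of the sex chromosome list were negative, and 0 had a p under 0.05. Without *Tbx1 LOF* array 2, 5 were negative and 3 were lower at p under 0.05, *Eif2s3y*, *Kdm5d* and *Uty*, all on the Y chromosome. Over all genes, 51.9% were negative and 2.25% lower without that array. The part of sex in other differences was not tested.

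**Figure D5:**
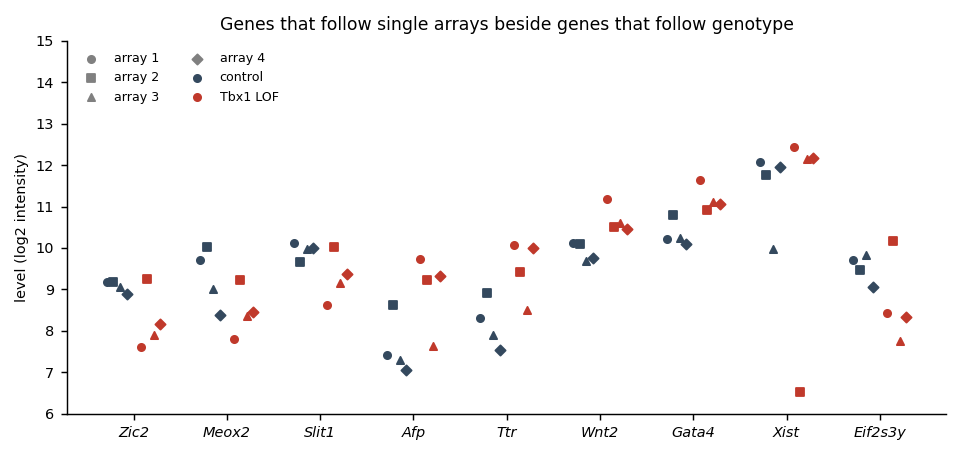
Level (log2 intensity) of 9 genes in each control array (dark) and *Tbx1 LOF* array (red), with a marker shape per array number. *Zic2*, *Meox2* and *Slit1* are highest among mutants in array 2, *Afp* and *Ttr* are lowest among mutants in array 3, and *Xist* is at 6.52 in *Tbx1 LOF* array 2, while *Wnt2* and *Gata4* are higher in all 4 *Tbx1 LOF* arrays than in all controls.

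Several groups had no gene at p under 0.05 in either direction. Of 17 measured anterior Hox genes, which mark axial position, the log2 fold changes ran from −0.27 for *Hoxd3* to 0.17 for *Hoxa4* with a median of −0.04. Without *Tbx1 LOF* array 2, 3 of these were lower and 1 higher, against 2.25% and 2.5% of all genes. The 33 measured neighbours of *Tbx1* in the mouse counterpart of the 22q11.2 region had a median of −0.02, and *Crkl* and *Dgcr8*, an adaptor of growth factor receptors and a microRNA processing factor, had −0.06 (SE 0.06) and −0.08 (SE 0.07). Cell cycle genes had a median of −0.02 over 25 measured genes, with *Mki67*, *Ccna2* and *Cdk1* at −0.03, −0.04 and −0.02. Immediate early and stress genes had a median of 0.00 over 23. Of 16 p53 targets and apoptosis genes, *Perp* was the one lower at p under 0.05 (−0.19), and of 22 genes of glycolysis and hypoxia 3 were higher, *Adm*, adrenomedullin (0.49), *Pfkp* (0.38) and *Bnip3* (0.28). Among all genes, 1.14% were lower and 1.94% higher. With the array number as a block, 1 of the 33 neighbours was lower and 1 cell cycle gene higher, against 1.74% and 2.92% of all genes. In these lists a p that missed the threshold does not show that the groups were alike.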

How the data were processed

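For each of 8 AHF samples, 4 *Tbx1 LOF* and 4 control, 100 ng of total RNA was the starting material of the amplified target that was hybridized to an Affymetrix Gene ST array for mouse. The deposited values are log2 intensities, which the authors made with RMA in the oligo package (background correction, quantile normalization and summarization). No version of oligo and no genome build is given in the sources used here. According to the methods, clustering showed batch effects, above all in the data of *β-catenin* loss and *Tbx1* loss, and batches were handled with ComBat and a block. The authors also excluded arrays of poor quality and analyzed 4 arrays per genotype. Neither the batch of an array nor whether ComBat was applied to the deposited values is stated in the methods. The deposited table held 35556 probe sets. Those with 1 gene symbol (21789) were kept, and 1621 with several and 12146 without a symbol were dropped. For 999 genes the probe sets were averaged, which gave 19938 genes, 19856 of them matched to the RefSeq gene table by identifier. Values ran from 3.62 to 14.53, array medians from 8.02 to 8.13. Precision is limited by having 4 arrays in each group.

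Differential expression, as *Tbx1 LOF* minus control, was tested with limma 3.58.1 (lmFit and eBayes) in R 4.3.3 on these 8 arrays, with Benjamini-Hochberg adjustment over all genes. Standard errors are limma's moderated ones. The steps were checked on simulated data with independent noise in each gene and array. That check does not cover differences between sets of arrays. Arrays of the same number deviated together from their group means (r = 0.396, 0.157, 0.202 and 0.494 for numbers 1 to 4). Arrays of different numbers within 1 and 2 or within 3 and 4 did so as much (r = 0.403 to 0.459), and only *Tbx1 LOF* array 4 correlated best with the control of its own number, so the number cannot be told apart from this split. The fit had no block, and blocks for the number and for the split were alternatives. Blocked values stand beside a named gene whose unadjusted call they end and beside list counts that the number as a block moved by over 1.5 times and by 2 genes or more. Alternatives were the block, arrays 1 and 2 against 3 and 4 as a block, all 24 arrays, moderation with a trend, the brightest probe set, a filter on the dimmest 25% of genes, renewed scaling and leaving out each array. With 4 arrays against 4, an exact permutation test allows no p below 0.0286, so none is quoted. Gene lists (41, with 843 of 910 distinct genes measured) are described by counts at an unadjusted p under 0.05 and medians, with no test. Genes named are *Tbx1* and *Ctnnb1*, the 15 higher and 15 lower genes of largest fold change among those at an unadjusted p under 0.05 without overlap, list members of that kind, genes the study names for these arrays, and examples of lists. The comparison, the lists and the genes were chosen with earlier results of these data known. Promoters came from RefSeq (GRCm38.p6). Matplotlib 3.10.9 under Python 3.11.15 drew the figures.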

Additional observations from a re-analysis of the deposited data

Results flagged for a closer look

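In 16 cases a single array of a named gene lay far from the other 3 of its group. In all, 190 groups of 4 arrays were examined, and since chance singles out about 1 in 20 groups, 9.5 such cases are expected. Control array 4 was the lowest for 5 genes of heart muscle, with *Slc8a1* at 8.22 (others 8.86 to 8.94), *Ryr2* at 8.55 (8.94 to 9.00), *Csrp3* at 8.80 (9.30 to 9.35), *Ankrd1* at 10.07 (10.80 to 10.93) and *Popdc2* at 10.38 (10.67 to 10.68). Control array 2 stood apart for *Tbx5* at 10.57 (10.24 to 10.28), *Zfpm2* at 8.66 (8.31 to 8.35), *Eya1* at 11.51 (11.67 to 11.69), *Bambi* at 10.84 (11.05 to 11.08) and *Myl2* at 7.53 (7.74 to 7.75). *Tbx1 LOF* array 1 stood apart for *Gata6* at 12.36 (11.76 to 11.84), *Bnc1* at 10.45 (9.93 to 10.00), *Myl2* at 8.59 (8.05 to 8.12) and *Heyl* at 8.52 (8.88 to 8.91). *Tbx1 LOF* array 2 did so for *Fgf9* at 8.11 (7.89 to 7.93), and array 3 for *Pgam2* at 9.75 (9.44 to 9.48). The cause was not tested.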

How the results depend on the processing

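The count of 0 genes at an adjusted p under 0.05 (limma; 614 at an unadjusted p under 0.05) became 11 with the replicate block and 6 with all 24 arrays in the fit, and it was 0 under the other 14 settings. In the fit of 24 arrays *Tbx1* passed at an adjusted p of 0.00626 with a log2 fold change of −0.64, which ran from −0.69 to −0.55 when single arrays were left out. The 7 lower genes past a fold change of 1.5 ran from 1 to 38 when single arrays were left out, with 38 without *Tbx1 LOF* array 2 and 15 without control array 4, and the 59 higher ones from 43 to 76. The 45 lower list genes ran from 31 to 89 in the same way. *Ctnnb1*, at −0.04, ran from −0.07 without *Tbx1 LOF* array 2 to 0.01 without control array 1, with 0.00 without *Tbx1 LOF* array 3. *Srf*, at 0.01, ran from −0.04 without *Tbx1 LOF* array 3 to 0.04 without *Tbx1 LOF* array 2, with −0.01 without control array 2. The cause was not tested. Of 1503 values of named genes under 16 settings, 1484 kept their direction and side of the threshold, and of 656 list medians 646 stayed within the spread between replicates. The threshold was an adjusted p of 0.05, which no gene passed in the main fit or in 14 of the settings. Most named genes were picked for groups without overlap, whose sign cannot turn when a single array is left out. The 1484 is therefore not a measure of robustness. Of the 614 genes at an unadjusted p under 0.05, 577 kept it with the replicate block, as did 140 of 145 list genes. The values carry no detection call, so how far dim genes lie above background is not known.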
